A study of Mus musculus with 16 samples.

Results

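Expression of 10 transcription factors that direct heart development was followed in adult mouse ventricle under pressure overload and under THZ1, a covalent small-molecule inhibitor of the transcriptional kinases CDK7, CDK12 and CDK13. The 10 genes were Gata4, Gata6, Nkx2-5, Tbx2, Tbx5, Tbx20, Hand2, Mef2a, Mef2c and Mef2d. They were picked by name, with earlier results of these data known, and each was found under a single Ensembl identifier among the 22372 genes in the count table.

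RNA came from ventricle pieces of 16 C57BL/6J mice, 10 to 12 weeks old when the experiment started, with 4 mice in each of 4 groups. Sham-Veh mice had the chest operation without a constriction and received vehicle. Sham-THZ1 mice had the same operation and received THZ1. TAC-Veh mice had a transverse aortic constriction (TAC), a suture that narrows the aortic arch and so loads the left ventricle with pressure, and received vehicle, while TAC-THZ1 mice had the constriction and THZ1. Per the labels THZ1 was given into the peritoneum at 10 mg/kg b.i.d. between day 1 and day 60 after surgery. No engineered allele is named for any group, the drug was not directed to 1 cell type, and each library mixes muscle cells with fibroblasts, vessel cells and leukocytes.

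GATA4 and GATA6 are zinc-finger factors, NKX2-5 is a homeodomain factor, TBX5 and TBX20 are T-box factors of chamber muscle, TBX2 is a T-box repressor, HAND2 is a basic helix-loop-helix factor and MEF2A, MEF2C and MEF2D are MADS-box factors. In the embryo most of them activate muscle gene promoters together and hold each other's expression up, whereas TBX2 represses chamber muscle genes, and most remain expressed in the adult ventricle. Loss or mutation of GATA4, NKX2-5, TBX5 or TBX20 causes congenital heart defects, and GATA4 and MEF2 proteins are known for carrying hypertrophic signals to genes such as Nppa and Nppb, which encode the natriuretic peptides ANP and BNP. Many of these signals act on the proteins by phosphorylation or through partner proteins, which transcript counts do not measure.

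Promoter sequences show which of 5 motif types lie beside the start of the peptide genes and of the factors themselves. Promoters in the RefSeq table, on build GRCm38.p6, were matched for 6 of the 10 factors (Nkx2-5, Tbx20, Hand2, Mef2a, Mef2c and Mef2d). No promoter was matched for Gata4, Gata6, Tbx2 and Tbx5. Gata6 was left out of the search, so whether it has an entry was not tested. The 250 bases before the start were searched on both strands for GATAA (GATA factors, found in 22.5% of 32536 distinct promoters of this length), TNAAGTG (NKX2-5, 10.0%), AGGTGT (T-box factors, 11.9%), CANNTG (the E-box of HAND2 and other helix-loop-helix factors, 66.2%) and the MEF2 motif, CTA and TAG with 4 bases between them (3.22%). The windows of Nppa and Nppb are printed because these genes gave the response of the hypertrophic program below, that of Hand2 because it held a GATA match, and that of Nkx2-5 because it held none. Capitals mark matches to the GATA, NKX2-5, T-box and MEF2 letters, and E-box matches stay in lower case. Each runs 5′ to 3′ on the strand of its gene, which is + for Nppa (chr4:148000472-148000721), Nppb (chr4:147985650-147985899) and Hand2 (chr8:57320733-57320982) and - for Nkx2-5 (chr17:26841566-26841815).
Nppa: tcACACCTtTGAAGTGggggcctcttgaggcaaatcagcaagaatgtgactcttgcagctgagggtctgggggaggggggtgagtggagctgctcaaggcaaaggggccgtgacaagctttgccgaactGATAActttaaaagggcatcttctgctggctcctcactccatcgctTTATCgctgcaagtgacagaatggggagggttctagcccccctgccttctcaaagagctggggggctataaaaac
Nppb: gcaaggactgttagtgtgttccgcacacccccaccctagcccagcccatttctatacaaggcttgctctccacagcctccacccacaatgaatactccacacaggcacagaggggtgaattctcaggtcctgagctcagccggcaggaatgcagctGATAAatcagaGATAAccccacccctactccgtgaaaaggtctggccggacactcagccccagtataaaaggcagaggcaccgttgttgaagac
Hand2: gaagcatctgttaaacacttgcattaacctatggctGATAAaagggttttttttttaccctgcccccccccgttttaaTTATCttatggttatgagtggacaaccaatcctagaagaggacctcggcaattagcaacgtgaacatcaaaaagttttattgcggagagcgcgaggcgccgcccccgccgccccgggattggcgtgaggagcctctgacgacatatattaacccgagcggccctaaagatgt
Nkx2-5: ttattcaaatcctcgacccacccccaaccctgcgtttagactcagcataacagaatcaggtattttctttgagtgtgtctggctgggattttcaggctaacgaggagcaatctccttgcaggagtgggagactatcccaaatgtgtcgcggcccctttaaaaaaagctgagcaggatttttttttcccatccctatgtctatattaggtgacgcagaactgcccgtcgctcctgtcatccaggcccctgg
The Nppa window held 2 GATA matches, 1 NKX2-5 match, 1 T-box match and 2 E-boxes. The Nppb window held 2 GATA matches and 1 E-box, which shares 1 base with a GATA match. In Hand2 there were 2 GATA matches and 2 E-boxes, and in Nkx2-5 there was 1 E-box alone. Of the factors not printed, entry 2 of Mef2c held 2 GATA matches and 1 T-box match, and its other entries held E-boxes alone. Tbx20, Mef2a and Mef2d held no match of any type. None of the 4 printed windows held the MEF2 letters, and a match or its absence says nothing about binding in these hearts.

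The libraries held 21.4 to 35.8 M (mega) reads counted in genes, with a median of 28.2 M, and the factors were counted with 147 to 6633 reads per library. All 10 passed the filter of at least 10 normalized counts in at least 4 libraries, as did 13331 genes in all. Reads from mitochondrial genes made up 33.2% to 44.7% of each library. Ventricular markers were present (Myl2 and Irx4 summed to between 121666 and 317119 normalized counts). Of 5 atrial markers, Sln, Myl7 and Bmp10 stayed under 10 normalized counts in every library and Myl4 was at 25.1 to 81.1 over the 16 libraries, but Dkk3, a secreted Wnt-pathway protein, rose with TAC from between 47.1 and 72.1 counts in Sham-Veh to between 491 and 1318 in TAC-Veh (log2 difference 3.68, limma adjusted p = 2.1e-07) and was lower with THZ1 in TAC hearts (-1.87, 3.1e-04). The summed atrial count was 86.2 to 105 in Sham-Veh, 90.6 to 107 in Sham-THZ1, 532 to 1400 in TAC-Veh and 169 to 346 in TAC-THZ1, and its part in the results below was not tested. In bulk tissue, fewer cells of a type and less RNA per cell cannot be told apart.

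In Sham-Veh ventricles the 10 factors spanned a wide range of levels, given here as normalized counts per kb of exon so that genes of different length can be compared. Mef2a had the highest mean, 815 ± 40.8 (SD, n = 4), followed by Gata4 at 746 ± 29.9, Nkx2-5 at 680 ± 53.0 and Mef2d at 671 ± 48.6. The ranges of these neighbours overlapped, so their order was not resolved. Gata6 (442 ± 53.8) and Hand2 (411 ± 67.5) came next, then Mef2c (283 ± 18.7) and Tbx20 (260 ± 24.3). Tbx5 at 191 ± 20.5 and Tbx2 at 73.2 ± 9.24 closed the order, each below its neighbour in all libraries. By mean level over the 16 libraries, Gata4 stood at percentile 90.5 of the genes tested and Tbx2 at percentile 39.3. In TAC-Veh the order began with Gata4 (641 ± 72.1), Nkx2-5 (561 ± 36.7) and Mef2a (510 ± 60.6), and Tbx5 (84.3 ± 16.9) and Tbx2 (53.9 ± 5.20) remained last.

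**Figure D1:**
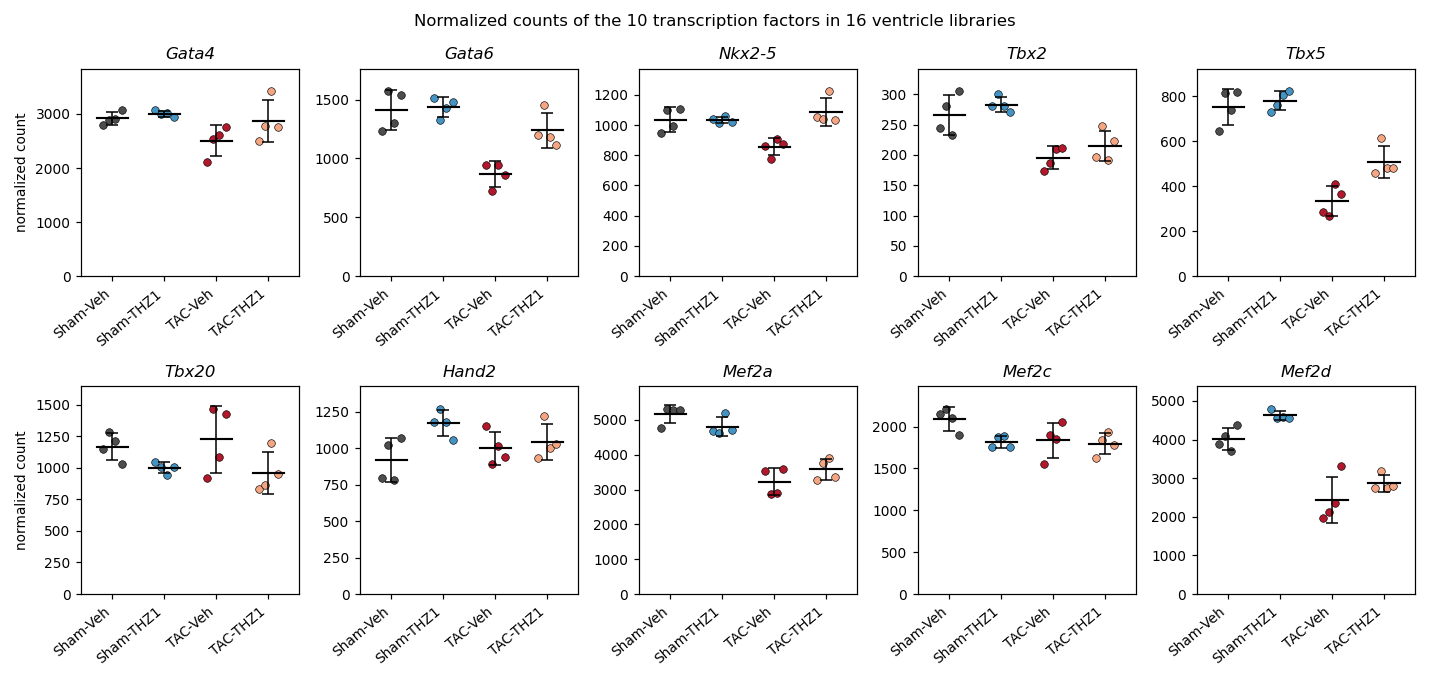
Normalized counts (y axes, from 0) of the 10 factors in the 16 libraries, 1 point per mouse, with the group mean as a horizontal line and 1 SD as the error bar. On the authors' scale Tbx5 fell from between 645 and 817 in Sham-Veh to between 268 and 409 in TAC-Veh and lay between 459 and 612 in TAC-THZ1, while the TAC-Veh range of Hand2 overlapped that of Sham-Veh.

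Most of these factors were lower under pressure overload on the authors' scale, Tbx5 by the widest margin of the 10. In TAC-Veh against Sham-Veh ventricles, 7 of the 10 were lower at an adjusted p under 0.05 (limma on log2 normalized counts), none was higher, and Tbx20, Hand2 and Mef2c did not pass. Among all genes tested, 45.0% were called in this comparison, 23.6% lower and 21.4% higher. The groups did not overlap for the same 7 factors, all lower, where 19.1% of all genes were lower without overlap and 37.3% did not overlap in either direction. The median difference of the 10 was -0.36 on the log2 scale, beside 0.00 for all genes to 2 decimals.

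Tbx5, which encodes an activator of muscle and conduction genes (ENSMUSG00000018263, chromosome 5, 120284672 to 120335227 on NCBIM37), had 645, 813, 736 and 817 normalized counts in the 4 Sham-Veh libraries, against 286, 268, 409 and 366 in the 4 TAC-Veh libraries. Every TAC-Veh value lay below every Sham-Veh value. The difference was -1.19 on the log2 scale (SE 0.13, limma adjusted p = 2.7e-06), a 2.29-fold lower level. It was the only one of the 10 that also passed the fold threshold used by the study for TAC, a log2 change of 1, which 8.01% of all genes passed.

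Among the MEF2 genes, Mef2d (ENSMUSG00000001419, chromosome 3, 87946294 to 87976008) had 3887, 4104, 3693 and 4370 normalized counts in Sham-Veh and 1966, 2137, 2348 and 3305 in TAC-Veh. The groups did not overlap, and the TAC-Veh replicate 4 stood well above the other 3. The log2 difference was -0.75 (SE 0.12, limma adjusted p = 9.4e-05). Mef2a (ENSMUSG00000030557, chromosome 7, 74376049 to 74517744) had 4777, 5321, 5284 and 5270 normalized counts in Sham-Veh against 3520, 2882, 2913 and 3599 in TAC-Veh, a log2 difference of -0.68 (SE 0.08, limma adjusted p = 8.3e-06). Both groups were again apart. Mef2c (ENSMUSG00000005583, chromosome 13, 83643033 to 83806684), with 1894 to 2213 in Sham-Veh and 1551 to 2050 in TAC-Veh, overlapped between groups and did not pass, with a log2 difference of -0.19 (95% interval -0.36 to -0.02, limma adjusted p = 0.062). It passed without Sham-Veh replicate 4 (-0.24, limma adjusted p = 0.036) and without TAC-Veh replicate 4 (-0.25, limma adjusted p = 0.018). Splice forms of the MEF2 genes cannot be separated in gene counts.

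Both GATA genes, zinc-finger regulators of muscle genes, were called lower. Gata6 (ENSMUSG00000005836, chromosome 18, 11052508 to 11085633) had 1229, 1575, 1301 and 1541 normalized counts in Sham-Veh and 946, 721, 947 and 859 in TAC-Veh. No TAC-Veh value reached the Sham-Veh range, and the log2 difference was -0.70 (SE 0.10, limma adjusted p = 5.8e-05). Gata4 (ENSMUSG00000021944, chromosome 14, 63817759 to 63890529) had 2796, 2889, 2912 and 3077 in Sham-Veh and 2108, 2529, 2617 and 2765 in TAC-Veh. Its groups did not overlap by a narrow margin, and its log2 difference of -0.23 (SE 0.09, limma adjusted p = 0.046) stayed called in 10 of 28 alternative analyses (the marker scale below apart), with adjusted p between 0.018 and 0.15. The call was lost without any one of the Sham-Veh or Sham-THZ1 libraries, TAC-Veh replicates 1 or 2, or TAC-THZ1 replicates 2 or 4, and without TAC-Veh replicate 1, the lowest library, the log2 difference was -0.15. The difference of the log2 changes between the GATA genes was not tested.

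Of the homeodomain, remaining T-box and HAND factors, 2 were lower and 2 did not pass. Nkx2-5 (ENSMUSG00000015579, chromosome 17, 26975609 to 26978510) had 944, 1101, 993 and 1108 normalized counts in Sham-Veh and 863, 776, 906 and 875 in TAC-Veh, without overlap, and a log2 difference of -0.28 (SE 0.07, limma adjusted p = 0.0051). Tbx2 (ENSMUSG00000000093, chromosome 11, 85646053 to 85655450), the least abundant of the 10, had 233 to 306 in Sham-Veh and 173 to 212 in TAC-Veh, a log2 difference of -0.44 (SE 0.10, limma adjusted p = 0.0030). These 2 genes were lower in every TAC-Veh library than in any Sham-Veh library. Tbx20 (ENSMUSG00000031965, chromosome 9, 24527648 to 24578746), with 1028 to 1287 in Sham-Veh and 923 to 1468 in TAC-Veh, was not called (log2 difference 0.05, 95% interval -0.24 to 0.33, limma adjusted p = 0.80). Hand2 (ENSMUSG00000038193, chromosome 8, 59799780 to 59803314), with 782 to 1071 and 890 to 1152, was not called either (0.13, -0.11 to 0.37, limma adjusted p = 0.36). Both Tbx20 and Hand2 overlapped between groups.

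**Figure D2:**
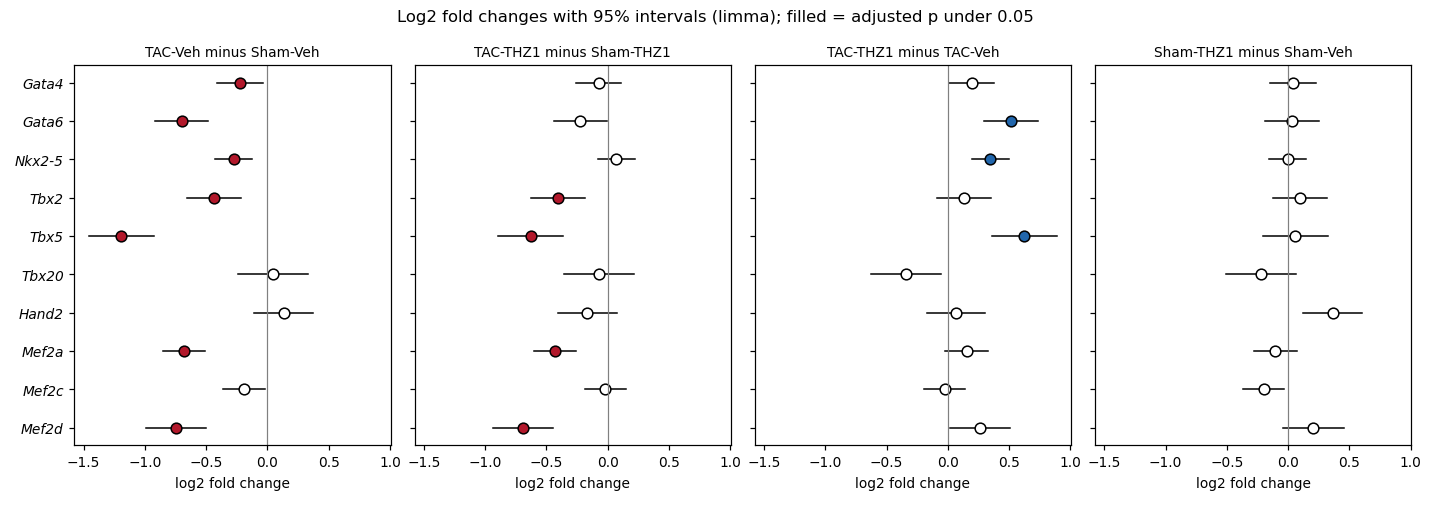
Log2 fold changes (x axes) with 95% intervals from limma for the 10 factors, 1 panel per comparison, with filled points where the adjusted p was under 0.05 (red lower, blue higher). On the authors' scale 7 factors were lower with TAC under vehicle, 4 were lower with TAC under THZ1, 3 were higher with THZ1 in TAC hearts and none was called with THZ1 in sham hearts, while scaled to cardiomyocyte markers the TAC differences of Gata4, Nkx2-5, Tbx2 and Mef2c and the THZ1 differences of Gata4, Nkx2-5, Tbx2, Hand2, Mef2a and Mef2d in TAC hearts changed sign.

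Some cardiomyocyte transcripts fell with TAC alongside the factors. Of 7 cardiomyocyte markers (Myh6, Tnnt2, Tnni3, Actc1, Ttn, Ryr2 and Pln), 4 were lower in TAC-Veh at adjusted p under 0.05, and their summed normalized count was 1219395 to 1317940 for Sham-Veh, 678752 to 946143 for TAC-Veh and 1013190 to 1247557 for TAC-THZ1. Fibroblast markers summed to 21228 to 23468, 41048 to 59915 and 24491 to 35878 in the same groups, with 4 of 6 higher in TAC-Veh. Their part in the results was not tested. The mean log2 level of the 7 cardiomyocyte markers was lower by 0.57 in TAC-Veh. Their single log2 differences ran from -1.20 for Myh6 to -0.02 for Actc1. Myh6, Tnnt2, Tnni3, Actc1 and Ryr2 are also on the list of targets of the factors used below. As a scale chosen after seeing the data, each library's log2 values were also taken relative to that mean, which moves the median difference of all genes to 0.56 in this comparison and so calls 10401 of 13331 genes, 74.1% higher and 3.92% lower. On that scale 5 factors were called higher and 1 lower. Tbx5 was the 1 still lower (-0.63, limma adjusted p = 2.13e-05), Gata6, Mef2a and Mef2d were at -0.13, -0.12 and -0.18 and no longer called, and Gata4, Nkx2-5, Tbx2 and Mef2c turned to 0.34, 0.29, 0.13 and 0.38. Of these Gata4 (limma adjusted p = 0.0098), Nkx2-5 (0.0089) and Mef2c (0.0044) were called higher, as were Tbx20 (0.61, 0.0035) and Hand2 (0.70, 2.4e-05), while Tbx2 was not called (0.30).

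**Figure D3:**
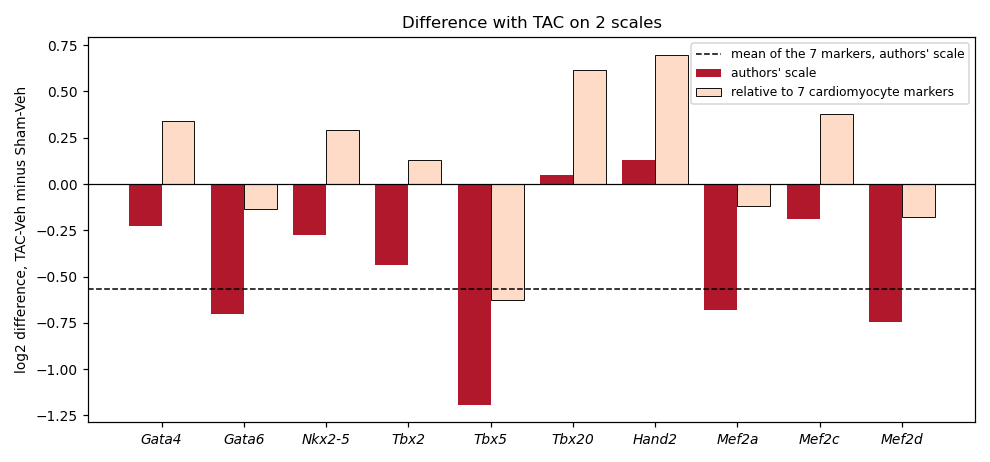
Log2 difference of TAC-Veh minus Sham-Veh (y axis) for the 10 factors, with filled bars on the authors' scale, light bars relative to the mean of 7 cardiomyocyte markers and a dashed line at the markers' own change. Tbx5 lay at -1.19 and -0.63 on these scales, while Gata4, Nkx2-5, Tbx2 and Mef2c lay below 0 on the authors' scale and above 0 on the other.

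With THZ1, constricted hearts had more Tbx5, Gata6 and Nkx2-5 transcript, and none of the other 7 factors passed the test. In TAC-THZ1 against TAC-Veh, 3 of the 10 factors were higher and none lower at an adjusted p under 0.05, where 29.4% of all genes were called, 15.1% higher and 14.2% lower. This comparison shares the TAC-Veh libraries with the one above, so the paired values of a factor are not independent. The TAC-THZ1 and TAC-Veh libraries of these 3 factors did not overlap, as for 9.53% of all genes in the higher direction. None passed the study's fold threshold for this comparison, a log2 change of 0.89, which 5.47% of all genes passed.

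Tbx5 had 459, 612, 481 and 479 normalized counts in TAC-THZ1, against 286, 268, 409 and 366 in TAC-Veh, and replicate 2 stood above the other 3. The log2 difference was 0.62 (SE 0.13, limma adjusted p = 0.0020). All 4 TAC-THZ1 values remained below the Sham-Veh range of 645 to 817. Gata6 had 1202, 1451, 1184 and 1113 in TAC-THZ1, above its TAC-Veh values in every library, with a log2 difference of 0.51 (SE 0.10, limma adjusted p = 0.0020). Nkx2-5 had 1055, 1040, 1226 and 1030 in TAC-THZ1, with replicate 3 the highest, and a log2 difference of 0.35 (SE 0.07, limma adjusted p = 0.0023). Its TAC-THZ1 values lay within or above the Sham-Veh range. The 3 calls held in all 28 alternative analyses other than the marker scale, where Tbx5 was at 0.18, Gata6 at 0.07 and Nkx2-5 at -0.09 and none of the 3 was called. Of the 7 cardiomyocyte markers 4 were higher with THZ1 in TAC hearts, with a mean log2 level higher by 0.44, and 4 of the 6 fibroblast markers were lower. Their part in these differences was not tested.

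Not called with THZ1 in TAC hearts were Gata4 (log2 difference 0.19, 95% interval 0.01 to 0.38), Mef2d (0.26, 0.02 to 0.51), Mef2a (0.15, -0.02 to 0.32), Tbx2 (0.13, -0.09 to 0.35), Hand2 (0.07, -0.17 to 0.30) and Mef2c (-0.03, -0.20 to 0.14). The counts of Mef2d in TAC-THZ1 were 2753, 3199, 2737 and 2804, above 3 of the 4 TAC-Veh values and below the fourth. Without TAC-Veh replicate 4 the log2 difference of Mef2d was 0.42 (limma adjusted p = 9.3e-04), so that 1 library decided its call, and without TAC-THZ1 replicate 1 Gata4 passed at 0.26 (limma adjusted p = 0.047). Tbx20, with 829, 863, 1199 and 951 in TAC-THZ1 against 923, 1468, 1083 and 1425, had the opposite sign (-0.34, 95% interval -0.63 to -0.05, limma adjusted p = 0.069). Its groups overlapped, and it passed in 4 of 28 alternatives, among them DESeq2 on recovered reads (adjusted p = 0.046) and the fits without TAC-Veh replicate 1 (-0.47) or TAC-THZ1 replicate 3 (-0.45). Relative to the cardiomyocyte markers 5 of these 7 factors were called lower, where 63.7% of all genes were and the median of all genes was -0.42. They were Tbx20 (-0.78, limma adjusted p = 0.0010), Mef2c (-0.47, 0.0015), Hand2 (-0.37, 0.0065), Mef2a (-0.29, 0.012) and Tbx2 (-0.31, 0.025), of which Hand2, Mef2a and Tbx2 had changed sign, while Gata4 and Mef2d changed sign to -0.25 and -0.18 and were not called.

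Whether THZ1 acted differently in TAC and sham hearts was tested with the interaction term of the same fit. The THZ1 difference was larger in TAC than in sham hearts for Gata6, by 0.48 on the log2 scale (SE 0.15, limma adjusted p = 0.048), and for Nkx2-5, by 0.35 (SE 0.10, limma adjusted p = 0.039), 2 of 10 factors where 10.0% of all genes were called, 4.40% in this direction. For Tbx5 the difference was 0.57 (SE 0.18, limma adjusted p = 0.053). Apart from the marker scale, it passed for Tbx5 in 6 of 27 alternatives. Among them were DESeq2 on recovered reads (adjusted p = 0.026) and the fits without Sham-Veh replicate 1, TAC-Veh replicate 3 or TAC-Veh replicate 4 (0.62 to 0.67). In no other factor did it pass. Relative to the cardiomyocyte markers the interaction was 0.03 for Gata6 and -0.10 for Nkx2-5, neither called, and 2 other factors were called lower, Hand2 (-0.75, limma adjusted p = 0.0031) and Tbx2 (-0.42, 0.043), where 44.4% of all genes were. Each call was close to the threshold, and leaving out single libraries gave between 0 and 3 called factors, with 0 when any one of Sham-Veh replicates 2, 3 or 4, any Sham-THZ1 replicate, TAC-Veh replicate 2 or TAC-THZ1 replicate 2 or 3 was left out. The share of all genes called in those fits was not computed.

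In sham hearts 0 of the 10 factors passed for THZ1 by limma, and 0 by DESeq2 or edgeR on the recovered reads, beside 9 of 13331 genes (0.0675%) by limma. At an unadjusted p under 0.05 there were 2 factors and 917 genes (6.88%). Hand2 had 1178, 1272, 1182 and 1056 normalized counts in Sham-THZ1 against 793, 1024, 782 and 1071 in Sham-Veh (log2 difference 0.36, 95% interval 0.13 to 0.60, limma adjusted p = 0.61). The groups overlapped, since the lowest Sham-THZ1 value lay below the highest Sham-Veh value. Mef2c had 1753, 1875, 1889 and 1753 against 2150, 2213, 2101 and 1894 (-0.20, -0.37 to -0.03, limma adjusted p = 0.67) and Mef2d 4800, 4558, 4577 and 4566 against 3887, 4104, 3693 and 4370 (0.21, -0.04 to 0.45, limma adjusted p = 0.78). Every Sham-THZ1 value of Mef2c lay below, and every one of Mef2d above, the Sham-Veh values, as 5.05% and 6.29% of all genes did in those directions. Hand2, Mef2c and Mef2d passed when only the 8 sham libraries were fitted (limma adjusted p between 0.030 and 0.049). The share of all genes called in that fit was not computed, so this count has no background beside it. Unlike that fit, the main fit took its spread from the TAC libraries too. For Tbx5, Gata6, Nkx2-5 and Gata4 the log2 differences were 0.06, 0.03, 0.00 and 0.04, with 95% intervals reaching no further than 0.32 from 0.

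Under THZ1, 4 of the 10 factors were lower with TAC. In TAC-THZ1 against Sham-THZ1, Mef2d, Tbx5, Mef2a and Tbx2 were lower and none was higher, where 24.2% of all genes were called and 12.8% lower. The group means share no library with the vehicle comparison. Both comparisons take the spread of a gene from all 16 libraries, so their calls are not independent. The log2 differences were -0.69 for Mef2d (SE 0.12, limma adjusted p = 0.0013), -0.63 for Tbx5 (SE 0.13, 0.0032), -0.43 for Mef2a (SE 0.08, 0.0025) and -0.40 for Tbx2 (SE 0.10, 0.012). The groups did not overlap in these 4, all lower, as for 17.7% of all genes. All 4 had also been lower under vehicle, at -0.75, -1.19, -0.68 and -0.44. Gata6 (-0.22, 95% interval -0.44 to -0.003, limma adjusted p = 0.13), Gata4 (-0.07) and Nkx2-5 (0.07), lower under vehicle, were not called here, and without TAC-THZ1 replicate 2 Gata6 passed (-0.30, limma adjusted p = 0.044). The direction of Gata4, Tbx20 and Mef2c in this comparison changed on the marker scale, and that of the 4 called factors did not, although Tbx2 was no longer called there (-0.29, limma adjusted p = 0.089), where 4.21% of all genes were called lower.

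Ratios within a library describe the balance inside families without depending on the scale between libraries. Of the summed per-kb level of Mef2a, Mef2c and Mef2d, Mef2c made up 14.1% to 17.2% in Sham-Veh and 21.4% ± 2.30 (SD, n = 4) in TAC-Veh. Under THZ1 its share was 13.8% ± 0.52 in the sham group and 18.9% ± 0.73 in the TAC group. The lowest TAC-Veh share, 19.2%, lay above the highest Sham-Veh share. Mef2a held 46.1% ± 1.48 in Sham-Veh and 44.0% ± 4.64 in TAC-Veh, and Mef2d 37.9% ± 1.90 and 34.6% ± 3.98. The log2 ratio of Tbx5 to Tbx20, per kb, was -0.44 for Sham-Veh and -1.69 for TAC-Veh, and with THZ1 it was -0.17 for sham and -0.72 for TAC hearts. The log2 ratio of Gata4 to Gata6 was 0.76, 1.24, 0.77 and 0.92 in the same order. These are descriptions, with no test.

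**Figure D4:**
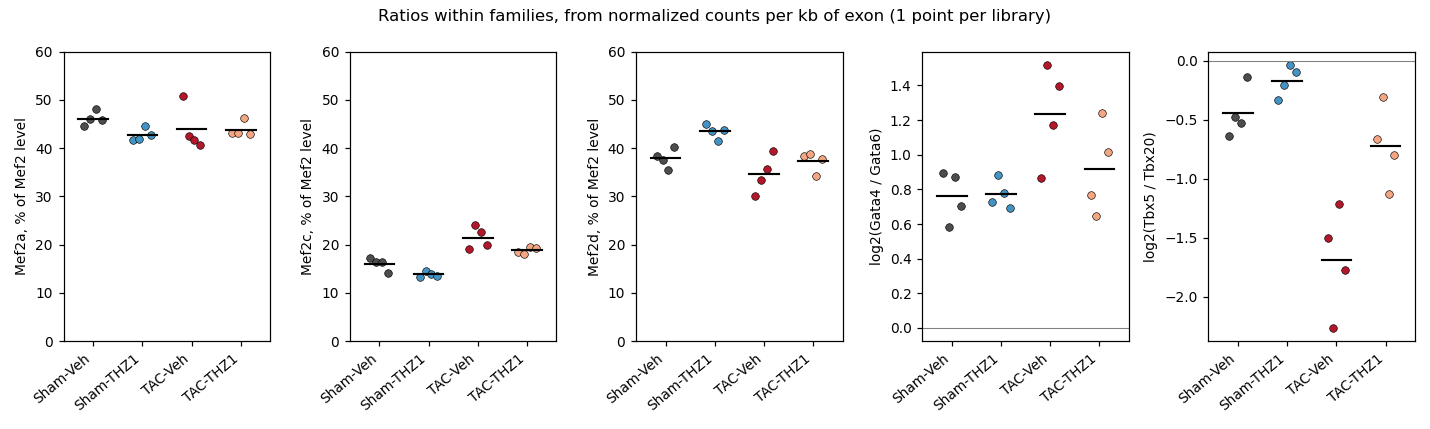
Ratios within families, 1 point per library and a line at the group mean, from normalized counts per kb of exon, with the share of each MEF2 gene in percent in the first 3 panels and log2 ratios in the last 2. The Mef2c share lay between 14.1% and 17.2% in Sham-Veh and averaged 21.4% in TAC-Veh, and the Tbx5 to Tbx20 ratio was lowest in TAC-Veh at -1.69.

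Partner proteins and cofactors of these factors were read from a list of 24 genes, of which 22 passed the filter. In TAC-Veh against Sham-Veh, 11 of the 22 were lower and 2 higher, where 23.6% and 21.4% of all genes were, with a median of -0.27 beside 0.00 for all genes. Hopx, a homeodomain-only protein that holds back SRF, was the most lowered (-1.56, limma adjusted p = 6.1e-05) and Ankrd1, a cardiac stress protein, the most raised (2.30, 2.8e-07). The lowest and highest counts of Hopx were 5530 and 6164 without constriction under vehicle and 993 and 3126 with it. With THZ1 in TAC hearts 5 were higher and 3 lower, where 15.1% and 14.2% of all genes were, with Hopx at 1.30 (limma adjusted p = 8.9e-04) and Ankrd1 at -1.07 (7.1e-04). The Ankrd1 difference with THZ1 was near this in sham hearts, -0.89, though not called (limma adjusted p = 0.19). Its counts were 25500 to 44102 in Sham-Veh and 13417 to 19931 in Sham-THZ1, and its interaction was -0.18 (limma adjusted p = 0.70). Zfpm2, the FOG2 cofactor of GATA4, was lower with TAC (-0.61, limma adjusted p = 1.3e-04) and was not called with THZ1 in TAC hearts (0.18). Hdac9, a repressor of MEF2, was lower with TAC (-0.66, limma adjusted p = 8.3e-04) and higher with THZ1 in TAC hearts (0.51, 0.0091). Srf, a MADS-box partner, was not called in either (0.11 and 0.07). Other members of the GATA, T-box, MEF2, HAND and NKX families, 13 genes of which 6 passed the filter, gave 1 higher and 2 lower with TAC (against the same shares of all genes), the largest being Tbx15 (3.10), with 15.2 to 33.9 counts under Sham-Veh against 95.2 to 317 under TAC-Veh, and Gata3, with 9.19 to 14.4 against 1.18 to 3.58, too few reads for a fold change. With THZ1 in TAC hearts Tbx15 was lower (-1.03, limma adjusted p = 0.043) and 2 other genes of that list higher, where 14.2% and 15.1% of all genes were. Of these 2, Gata3 again had few reads, with 3.82 to 13.9 counts in TAC-THZ1.

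Known targets of the factors moved in both directions. Of 20 genes 18 passed the filter, and with TAC 4 rose and 8 fell, where 21.4% of all genes rose and 23.6% fell. Nppa had 4544, 2743, 2788 and 3172 normalized counts in Sham-Veh and 199788, 112703, 54193 and 49207 in TAC-Veh, and Nppb had 3822, 2775, 3839 and 3344 against 27977, 21920, 15636 and 13076. Their groups were far apart, with log2 differences of 4.76 (SE 0.40) and 2.46 (SE 0.21), both at a limma adjusted p of 3.8e-07. Acta1, skeletal actin, and Myh7, beta myosin heavy chain, rose with them (4.38 and 4.25). The largest decrease was in Atp2a2, the calcium pump of the sarcoplasmic reticulum (-1.30, limma adjusted p = 2.8e-05), and Myh6, the adult myosin heavy chain, fell by 1.20 on the log2 scale. With THZ1 in TAC hearts 8 targets rose and 3 fell (15.1% and 14.2% of all genes), with Ppargc1a, a coactivator of mitochondrial genes, the most raised (0.70, limma adjusted p = 0.031) and the decreases including Nppa (-1.83, limma adjusted p = 0.0030) and Nppb (-0.87, 0.0053), while Myh6 was not called (0.47, 0.070). In TAC-THZ1 Nppa had 35178, 12865, 42633 and 19261 counts. No gene of the 3 lists was called for THZ1 in sham hearts, where 0.0675% of all genes were. With TAC under THZ1, 4 targets were higher and 5 lower, where 11.4% and 12.8% of all genes were, with Myh7 (3.19) and Kcnj2, an inward-rectifier potassium channel (-0.85), at the ends, and among the partners Ankrd1 was higher (2.12) and 2 were lower, Camta2 by the most (-0.47). In the interaction, where 4.40% of all genes were higher and 5.62% lower, 1 target was higher and 1 lower (Tnni3 0.65, Acta1 -1.34), and 3 partners were higher and 1 lower, with Hopx at 1.42, Zfpm2 at 0.56 and Nfatc4 at -0.72. The THZ1 differences behind them were, in TAC and then sham hearts, 1.30 and -0.12 for Hopx and -0.48 and 0.24 for Nfatc4. For Zfpm2 they were 0.18 and -0.38, neither called, with the larger change in sham hearts.

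The genes closest in pattern to each called factor were found by the root mean square difference of centred log2 values over the 16 libraries, among 10307 tested genes averaging 100 or more normalized counts. For Tbx5 they were 1110020G09Rik (0.096), Pank1 (0.11) and Aldh6a1 (0.12), where the SD of Tbx5 itself was 0.53. Gata6 was nearest Ccbl1 (0.079), Gbas (0.082) and Pdss2 (0.086), Nkx2-5 nearest Gpaa1, Ruvbl2 and Tbrg4 (0.063 to 0.071), and Gata4 nearest Foxk2, Wdr82 and Trim28 (0.055 to 0.078). Mef2a came closest to Nebl, Larp4 and Tgfbr3 (0.080 to 0.099), Mef2d to Ubqln2, Phf2 and Tnk2 (0.079 to 0.091) and Tbx2 to Zer1, Prosapip1 and Nipal3 (0.070 to 0.086).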

How the data were processed

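Poly(A) RNA of 16 ventricle pieces was sequenced with a stranded kit, 1 library per mouse. The authors aligned reads with TopHat2 2.1.1 to mm9, counted them per gene with htseq-count in reverse-stranded mode and divided them by DESeq2 size factors, so the deposited signal is a normalized count per gene and library. Dividing each library by its smallest step gave whole reads for 100% of values (tolerance 0.01 reads). Antisense lincRNAs overlap Gata6 and Mef2d by 58 and 527 bases on the other strand, which the stranded counting keeps apart. Positions and exon lengths (the union of exons) came from the GENCODE annotation of NCBIM37, the mm9 assembly.

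Genes with at least 10 normalized counts in at least 4 libraries (13331) were fitted with limma 3.58.1 on log2 of the normalized count plus 1, fitting each group its own mean with trended empirical Bayes, and p-values (two-sided) were adjusted over all genes tested in each contrast by Benjamini-Hochberg. Fold changes are on that scale and understate those of low genes. The 4 groups shared 1 estimate of the spread per gene, although replicates differed more in the TAC groups. Chi-square per degree of freedom between the reads of 2 libraries of a group was 3.06 to 7.82 in the sham groups. It was 53.1 to 98.3 in TAC-Veh and 10.7 to 58.5 in TAC-THZ1. Contrasts of sham groups were thus tested against a spread drawn also from TAC libraries. Groups came from the labels. Alternatives were edgeR 4.0.16 and DESeq2 1.42.0 on the recovered reads, other pseudocounts, filters and scalings, array weights, robust fits, the replicate block and leaving out each library. The script was tested on simulated data. Members and gene lists were chosen with earlier results of these data known. From each list the text names the called gene with the largest change in each direction, and Nppa, Nppb, Myh6, Zfpm2, Srf and Hdac9, while Acta1 and Myh7 were named after their values were seen. Hdac4 was matched by identifier, and Tnnc1 had overlapping identifiers at 0 and was not measured.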

Additional observations from a re-analysis of the deposited data

Results flagged for a closer look

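In 40 checks of the groups of 4 libraries, 6 groups had a library far from the other 3, and chance gives about 1 in 20. In TAC-THZ1, Nkx2-5 was at 1226 normalized counts in replicate 3 (others 1030 to 1055), Tbx5 at 612 in replicate 2 (others 459 to 481) and Mef2d at 3199 in replicate 2 (others 2737 to 2804). In Sham-THZ1, Mef2a was at 5201 in replicate 3 (others 4624 to 4711) and Mef2d at 4800 in replicate 1 (others 4558 to 4577), and in Sham-Veh Mef2a was at 4777 in replicate 1 (others 5270 to 5321).

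The THZ1 difference was larger in TAC than in sham hearts for Gata6, by 0.48 on the log2 scale (limma adjusted p = 0.048), and for Nkx2-5, by 0.35 (limma adjusted p = 0.039), both by the interaction term. Apart from the marker scale, Gata6 was called in 13 of 27 alternative analyses and Nkx2-5 in 16 of 27. On the marker scale the 2 interactions were 0.03 and -0.10, and neither was called.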

How the results depend on the processing

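Of 590 results of single factors under other settings 569 kept direction and call, as did 737 of 800 with 1 library left out. The study's fold thresholds left 1 factor for TAC under vehicle and 0 for THZ1 in TAC hearts, TAC under THZ1 and the interaction. Of all genes, 8.01%, 5.47%, 2.03% and 3.80% passed them in the same order. The interaction called 1 factor without a filter and 0 at an adjusted p under 0.01. Sham hearts gave 3 called factors when fitted alone and 2 with array weights, and the share of all genes called in those fits was not computed. Leaving out 1 library gave 6 to 8 factors for TAC under vehicle, 3 to 4 for THZ1 in TAC hearts, 0 to 0 for THZ1 in sham hearts, 4 to 5 for TAC under THZ1 and 0 to 3 for the interaction. Correlations between same-numbered libraries, after centring on group means, ran from -0.43 to 0.16. Libraries with different numbers were not compared, so a pairing by replicate number was neither shown nor excluded. With the replicate block the interaction called 0 factors, and the block gave 7 for TAC under vehicle, 3 for THZ1 in TAC hearts, 0 for THZ1 in sham hearts and 4 for TAC under THZ1. Apart from the fold thresholds, the share of all genes called was not computed for these alternatives, so their counts have no background beside them.

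Scaled to the cardiomyocyte markers, which was added after seeing the data, THZ1 in TAC hearts called 5 factors, all lower, and the median of all genes moved to -0.42. Signs turned in 20 of 50 results. With TAC under vehicle these were Gata4 (0.34), Nkx2-5 (0.29), Tbx2 (0.13) and Mef2c (0.38). With THZ1 in TAC hearts they were Gata4 (-0.25), Nkx2-5 (-0.093), Tbx2 (-0.31), Hand2 (-0.37), Mef2a (-0.29) and Mef2d (-0.18). In sham hearts it was Nkx2-5 (0.011), and with TAC under THZ1 Gata4 (0.040), Tbx20 (0.043) and Mef2c (0.10). In the interaction they were Gata4 (-0.30), Nkx2-5 (-0.10), Tbx2 (-0.42), Mef2a (-0.20), Mef2c (-0.28) and Mef2d (-0.40). On this scale every gene in a comparison is shifted by the same amount, and what lies behind the markers' own change was not tested.

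Among values near 0, quantile scaling turned Mef2c with TAC under THZ1 (0.0053) and array weights the interaction of Mef2d (-0.0073). With 1 library left out, signs turned for Tbx20 with TAC (-0.048 to 0.17), Hand2 (-0.010 to 0.14) and Mef2c (-0.11 to 0.028) with THZ1 in TAC hearts, Gata6 (-0.030 to 0.089), Nkx2-5 (-0.046 to 0.031) and Tbx5 (-0.015 to 0.098) in sham hearts, Mef2c with TAC under THZ1 (-0.055 to 0.029), and the interactions of Tbx2 (-0.038 to 0.093) and Mef2d (-0.038 to 0.21). The cause was not tested.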
